A study of Homo sapiens with 4 samples.

Results

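The cytosolic ribosomal protein genes encode the proteins of the ribosome that works outside mitochondria. They were taken by symbol from the gene table, as RPSA, RPLP0 to RPLP2 and every RPS or RPL name made of a number with at most a closing A or X. This rule gave 77 of 78932 gene rows, 31 RPS genes of the small subunit and 46 RPL genes of the large subunit, with 1 row per symbol. Pseudogenes and ribosomal-protein-like genes were not taken. The cells were RPMI 8226, a human multiple myeloma line of malignant plasma cells that the sample labels spell RPMI82266. They received an LNA ASO against CELF2 at 5 nM, or a control LNA ASO whose dose the labels do not give, and RNA was taken after 72 hours. An LNA ASO is a short synthetic strand of modified nucleotides (locked nucleic acid) that pairs with a target RNA, and CELF2 is a protein that binds RNA and acts on its splicing and decay. Each group had 2 libraries from this 1 line, numbered 1 and 2 and called replicates here, although the labels leave unsaid whether a number marks a repeat or another oligonucleotide. Differences within a group, and the standard errors, may therefore include a difference between oligonucleotides. The labels name no other treatment or genetic change in either group. The labels do not tie the libraries to separate cultures, and the spread behind each p-value may therefore be only technical.

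Cells make ribosomal proteins in matched amounts, and copies that find no place in a ribosome are degraded. The mRNAs carry a 5′ terminal oligopyrimidine (TOP) tract, a C followed by a run of C and T at the very start of the transcript, through which mTORC1 and the RNA-binding protein LARP1 control their translation and stability. Plasma cells and myeloma cells secrete large amounts of immunoglobulin and depend on a high rate of protein synthesis.

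The start of each transcript is shown first because the TOP tract is the sequence feature that defines these mRNAs. In the RefSeq promoter table (GRCh38.p14), 62 of the 77 genes had an entry. A tract was taken as a C followed by at least 4 bases of C or T, beginning within 5 bases of an annotated start, on the sense strand only and with no other motif searched. It was present for 53 of the 62, or 85.5%, against 25.2% of the 27305 genes with an entry. The 8 windows printed here run from 10 bases before the start to 20 bases from it, 30 bases in all, and capitals mark the tract. The first 4 belong to genes that were higher with the CELF2 ASO and the last 4 to genes that were lower. These windows were picked and do not give the share of genes with a tract. RPL15, RPL9, RPS29 and RPS4X were higher and had an entry without a match, and are not printed. RPL17, lower and also without a match, is not printed either.
RPL22, chr1:6199576-6199605, minus strand: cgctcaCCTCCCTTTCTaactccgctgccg
RPL3, chr22:39319604-39319633, minus strand: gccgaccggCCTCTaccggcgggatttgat
RPL13A, chr19:49487598-49487627, plus strand: aaacctCCTCCTTTTCCaagcggctgccga
RPS27, chr1:153990752-153990781, plus strand: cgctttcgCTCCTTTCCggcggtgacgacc
RPL28, chr19:55385922-55385951, plus strand: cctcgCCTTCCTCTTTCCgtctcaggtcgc
RPSA, chr3:39406710-39406739, plus strand: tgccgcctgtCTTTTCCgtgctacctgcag
RPS15, chr19:1438386-1438415, plus strand: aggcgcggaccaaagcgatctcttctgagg
RPS26, chr12:56041908-56041937, plus strand: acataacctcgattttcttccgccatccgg

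RPL28 and RPSA carried a tract and were lower, so the windows of the lower genes were of both kinds. RPS15 and RPS26 had no match within 5 bases of the annotated start. In both printed windows a C followed by at least 4 bases of C or T begins further downstream. Their lack of a match therefore depends on that limit and on the annotated start. The same holds for RPL9 and RPL15, which were higher and whose windows are not printed.

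The libraries held 23599190 to 29161298 counts. CELF2 checked the labels: its level was 128 and 128 CPM (the read count normalised by library size with edgeR's TMM factors) in the control libraries and 56.6 and 48.8 CPM with the CELF2 ASO, -1.28 ± 0.09 on the log2 scale (fold change ± SE, edgeR adjusted p = 2.88e-05). All 9 plasma cell markers were tested, 3 higher (33.3%) and 4 lower (44.4%), with log2 fold changes from -1.22 to 1.28. Over all genes tested 27.5% were higher and 27.9% lower. The markers' summed level was 3167 to 3379.3 CPM in the control libraries and 3310.6 to 3860.6 CPM with the CELF2 ASO. That sum does not show the opposite changes of single markers. Of the T and NK cell list 4 of 7 were tested, with summed levels of 267 to 268 CPM and 40.1 to 66.8 CPM. Nearly all of this was CD8B, at 262 to 265 CPM in the control libraries and 37.7 to 64.0 CPM with the CELF2 ASO, while CD3D had 0 counts in 3 libraries and 2 in the other. Of the myeloid list 4 of 6 were tested, with 7.97 to 8.4 CPM and 3.03 to 3.43 CPM, and LYZ and S100A8 were at 0 in all 4 libraries. Of the stromal and epithelial list 4 of 6 were tested, with 122 to 124 CPM and 91.1 to 91.2 CPM. The part of these markers in the results below was not tested.

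More ribosomal protein genes were higher than lower in cells given the CELF2 ASO, but the changes were small and the shift was larger in 1 of the 2 libraries. All 77 genes passed the filter on low counts, and 35 of them (45.5%) were higher at an edgeR adjusted p under 0.05, where 27.5% of the 19511 genes tested were called higher. Only 6 members (7.79%) were lower, against 27.9% of all genes tested, and calls in either direction took 55.5% of all genes. The other 36 did not pass, and their log2 fold changes ran from -0.39 to 0.27. The median log2 fold change was 0.25 over the 77 genes, with quartiles of -0.02 and 0.46, and 0.04 over all genes tested, with quartiles of -0.53 and 0.65. A change of at least 1.5-fold in either direction was seen for 12 of the 77, and RPL22 and RPL17 alone reached 2-fold.

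The libraries of the groups did not overlap for 49 members that were higher and 12 that were lower, where 41.2% and 38.4% of all genes tested did so in the same directions, 79.6% in all. Called members kept their sign under all 13 alternative settings, while 22 members that were not called changed sign under at least 1 of them. Of the 41 called members, 20 remained called under every alternative, 18 higher and 2 lower. With scaling by library totals alone the split was 48 higher and 2 lower, and the median of all genes moved to 0.16. The members' median stood 0.20 above that of all genes under both scalings.

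**Figure D1:**
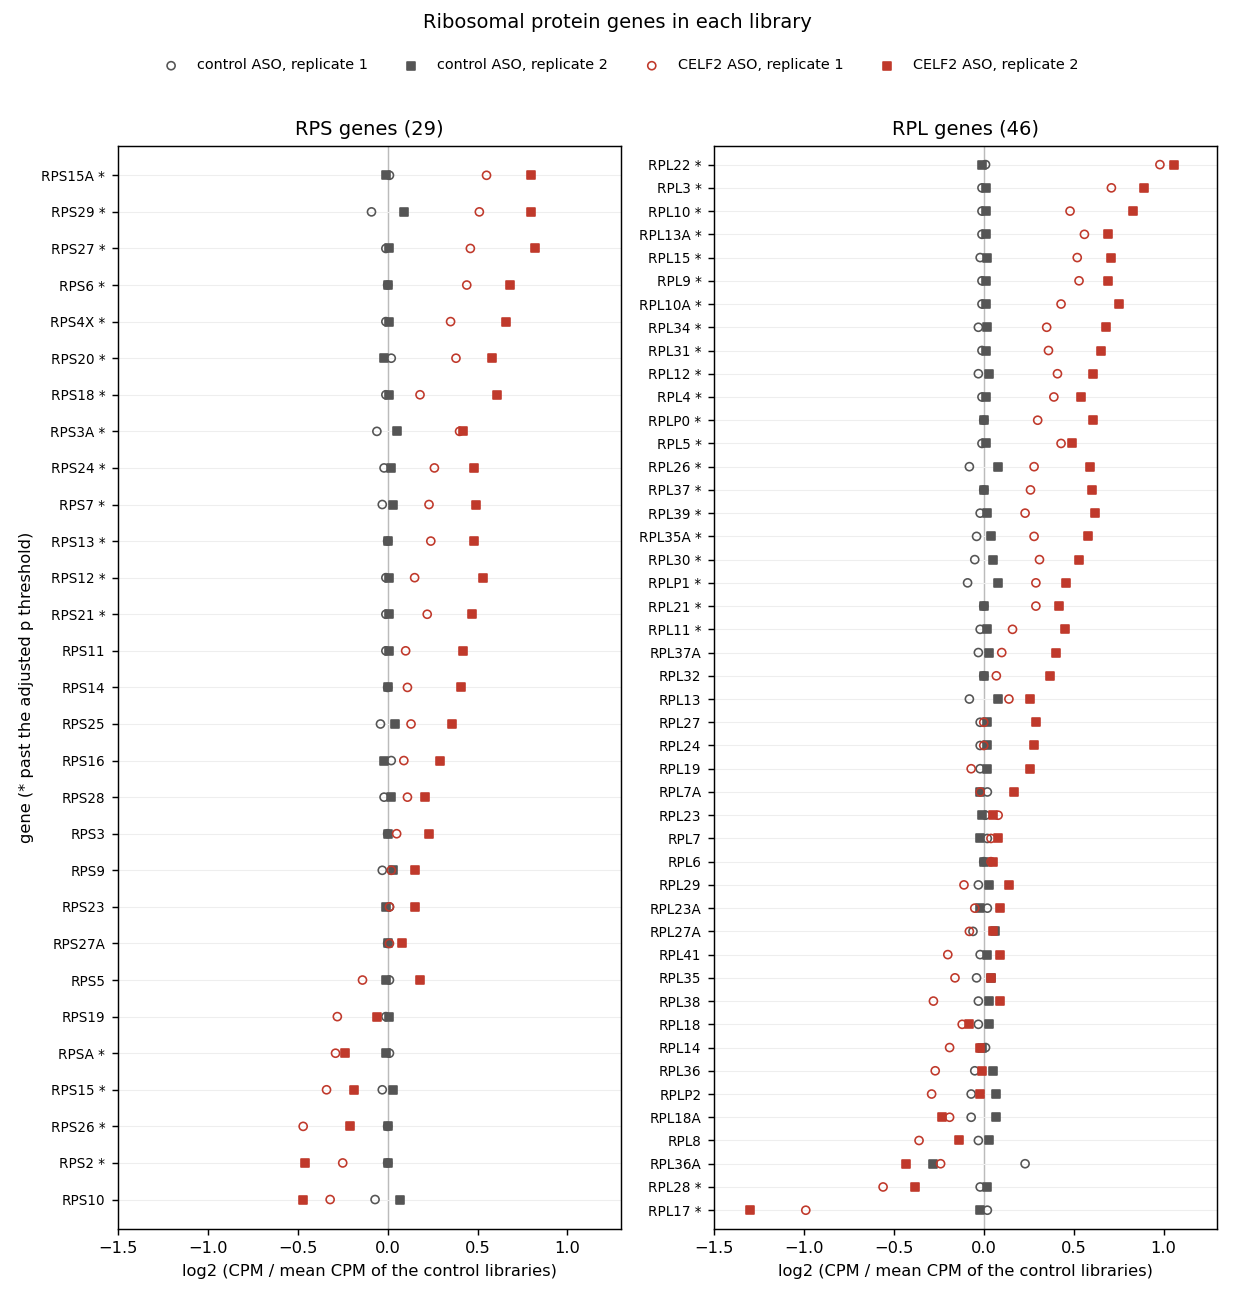
Each point is 1 library, placed by the log2 ratio of its CPM to the mean CPM of the control libraries, for 29 of the 31 RPS genes on the left and 46 RPL genes on the right, and an asterisk marks genes past the adjusted p threshold. Most CELF2 ASO points lie right of the control points, with RPL22 at the top, RPL17 at the bottom, and replicate 2 to the right of replicate 1 for most genes.

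The CELF2 ASO libraries differed from each other on these genes. Set against the control mean, the median member had a log2 ratio of 0.11 in replicate 1 and 0.37 in replicate 2, while all genes tested had medians of 0.04 and 0.03. Replicate 2 was above replicate 1 for 70 of 77 members (90.9%) and for 49.5% of all genes tested. The median log2 ratio of replicate 2 to replicate 1 was 0.21 over the members, with a range of -0.31 to 0.43, and 0 over all genes. Between the control libraries the same median was 0.02. The control libraries therefore agreed far more closely on these genes than the CELF2 ASO libraries did.

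Without replicate 2 of the CELF2 ASO the members' median fell to 0.09, and 37 were higher and 19 lower. Without replicate 1 the median was 0.38, and 52 were higher and 9 lower. In both of these fits the single CELF2 ASO library is assumed to vary as little as the control pair. Without control replicate 1 the counts were 18 and 2, and without control replicate 2 they were 24 and 2.

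**Figure D2:**
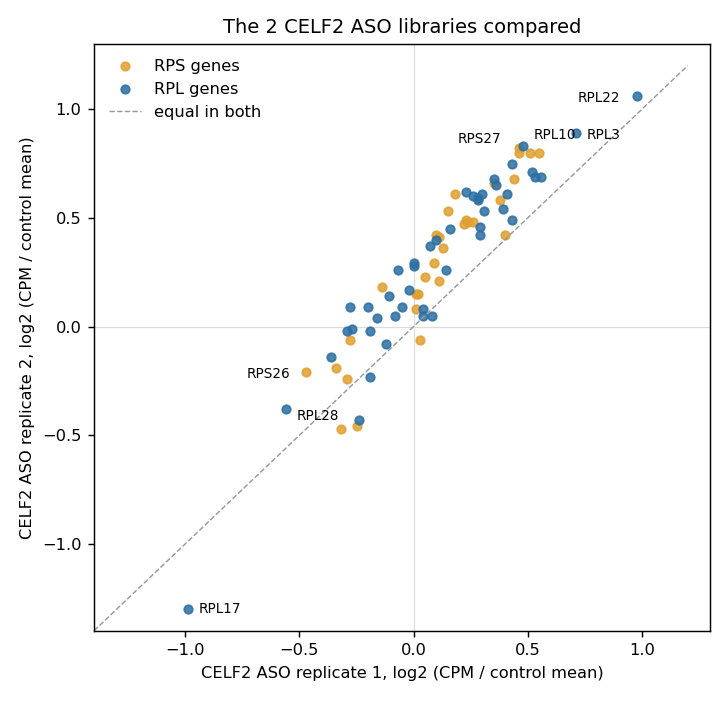
Each point is 1 of 77 genes, with the log2 ratio of its CPM to the control mean in CELF2 ASO replicate 1 on the x axis and in replicate 2 on the y axis, and the dashed line marks equal values. The bulk of the points sits above the line (70 of 77), and RPL17 and RPL22 lie at the far ends in both libraries.

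The summed ribosomal protein genes took 6.08% and 6.20% of all counts with the control ASO, and 7.49% and 8.27% with the CELF2 ASO. Both CELF2 ASO libraries were above both control libraries. Counted against protein-coding genes alone, the shares were 6.64% and 6.72% against 8.51% and 9.47%. With 2 libraries per group an exact permutation test over libraries cannot reach the threshold, so these shares carry no test. In bulk RNA, fewer cells of a type and less RNA per cell cannot be told apart, and a share also moves when the rest of the library does.

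RPL4, which lines the tunnel through which the new protein chain leaves the ribosome, was the largest contributor in every library. Its part of the ribosomal protein counts was 5.63% and 5.58% in the control libraries and 6.69% and 6.40% with the CELF2 ASO.

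Small and large subunit genes had similar shares of genes called higher, 45.2% of RPS and 45.7% of RPL genes. Of 31 RPS genes, 14 were higher and 4 lower, with a median log2 fold change of 0.27 and a range of -0.39 to 0.68. Of 46 RPL genes, 21 were higher and 2 lower, with a median of 0.22 and a wider range of -1.13 to 1.02. The medians per library were 0.11 and 0.41 for RPS and 0.09 and 0.33 for RPL in CELF2 ASO replicates 1 and 2. Summed RPS counts took 2.24% and 2.25% of the control libraries and 2.67% and 2.96% with the CELF2 ASO. Summed RPL counts took 3.84% and 3.95%, then 4.82% and 5.31%. The ratio of summed RPS to summed RPL counts was 0.582 and 0.571 in the control libraries and 0.554 and 0.557 with the CELF2 ASO. The groups did not overlap in this ratio, although the median fold change of the RPS genes was the higher of the pair. A sum weighs each gene by its counts and a median does not, and which genes moved the ratio was not tested. No difference between the subunits was tested.

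**Figure D3:**
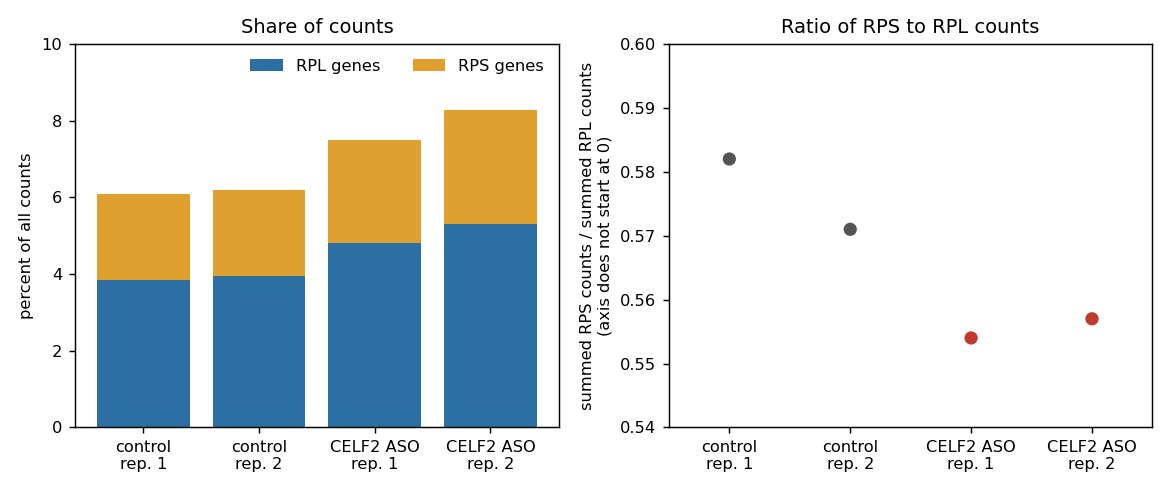
The left panel stacks the percent of all counts taken by 46 RPL and 31 RPS genes in each of the 4 libraries, and the right panel gives the ratio of summed RPS to summed RPL counts on an axis that does not start at 0. The stacked share goes from 6.08% and 6.20% to 7.49% and 8.27%, and the ratio is lower in both CELF2 ASO libraries.

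RPL22 showed the largest rise among the members. It is a large subunit protein that is not needed for protein synthesis itself and is known as a tumour suppressor in lymphoid cells. The gene (ENSG00000116251, GRCh38 chromosome 1, 6185020 to 6209389, minus strand) had 34.8 and 34.5 CPM in the control libraries and 68.1 and 72.5 CPM with the CELF2 ASO. Its libraries lay close together within each group and far apart between groups. The log2 fold change was 1.02 ± 0.08 (SE, edgeR adjusted p = 3.66e-05), or 2.03-fold. Its close paralog RPL22L1, which RPL22 protein is known to repress, went the other way. RPL22L1 had 9.79 and 10.4 CPM in the control libraries and 7.07 and 6.78 CPM with the CELF2 ASO, -0.54 ± 0.13 on the log2 scale (edgeR adjusted p = 0.00965). That call was lost without control replicate 2, at an edgeR adjusted p of 0.0786.

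RPL3, a core protein beside the site where peptide bonds form, rose from a far higher level. The gene (ENSG00000100316, GRCh38 chromosome 22, 39312882 to 39320389, minus strand) had 1891.0 and 1904.8 CPM in the control libraries and 3102.1 and 3524.9 CPM with the CELF2 ASO. The log2 fold change was 0.80 ± 0.09 (edgeR adjusted p = 0.000188). Its muscle-type paralog RPL3L was scarce, with 4 to 16 counts in a library and no call (log2 fold change -0.81, edgeR adjusted p = 0.19). RPL10, which completes the large subunit late in its assembly, had 1163.5 and 1180.6 CPM against 1634.7 and 2085.9 CPM. Its log2 fold change was 0.67 ± 0.12 (edgeR adjusted p = 0.00201). Exons of RPL10 overlap genes on the other strand over 52.7% of their length, and with no strand setting given in the sources used here such reads cannot be told apart.

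RPL13A, a surface protein of the large subunit with a known part in interferon-γ signalling, had 985 and 992 CPM in the control libraries and 1461.3 and 1596.8 CPM with the CELF2 ASO (log2 fold change 0.63 ± 0.08, edgeR adjusted p = 0.000387). Among the small subunit genes the largest rise was that of RPS15A, from 152 and 151 CPM to 221 and 264 CPM (0.68 ± 0.10, edgeR adjusted p = 0.000748). RPS29, a small zinc-binding protein, went from 292 and 331 CPM to 443 and 541 CPM (0.66 ± 0.11, edgeR adjusted p = 0.00185). In each of these genes the lower CELF2 ASO library was above the higher control library, which the rule for naming rises required.

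RPS27, a zinc-binding protein once named metallopanstimulin, had 413 and 420 CPM in the control libraries and 572 and 734 CPM with the CELF2 ASO (log2 fold change 0.65 ± 0.12, edgeR adjusted p = 0.00239). RPS6, the small subunit protein phosphorylated by the S6 kinases and used as a readout of mTORC1, had 1424.1 and 1430.0 CPM, then 1941.8 and 2283.7 CPM (0.57 ± 0.09, edgeR adjusted p = 0.00159). For both genes the second CELF2 ASO library was the highest of the 4. The smallest rise that passed was that of RPL11, at 0.31.

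The 6 genes that fell ranged from RPL17, at -1.13, to RPSA and RPS15, at -0.26. RPL17, a protein at the exit of the peptide tunnel (ENSG00000265681, GRCh38 chromosome 18, 49488453 to 49492523, minus strand), had 13.8 and 13.4 CPM in the control libraries and 6.85 and 5.52 CPM with the CELF2 ASO. The log2 fold change was -1.13 ± 0.15 (edgeR adjusted p = 0.00047), and both CELF2 ASO libraries were well below the controls. Its control level was among the 4 lowest of the members, at 24.6 CPM per kilobase of coding sequence where the highest member had 7002.6. RPL17 shares 24.8% of its exon length with the readthrough gene RPL17-C18orf32 on the same strand, which was at 0 in all 4 libraries, so its counts are uncertain.

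RPL28 was the clearest fall among abundant members. The gene (ENSG00000108107, GRCh38 chromosome 19, 55385345 to 55403250, plus strand) had 1749.6 and 1798.8 CPM in the control libraries and 1202.9 and 1360.1 CPM with the CELF2 ASO. The log2 fold change was -0.47 ± 0.08 (edgeR adjusted p = 0.00247). RPL28 was also the 1 member with no pseudogene named after it in GENCODE 29, where the other 76 had 1132 between them. RPL17 and RPL28 were the 2 falls that remained called under every alternative.

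The other 4 falls were in small subunit genes. RPS2, at the channel where mRNA enters the ribosome, had 2087.5 and 2098.4 CPM in the control libraries and 1765.0 and 1519.9 CPM with the CELF2 ASO (log2 fold change -0.35 ± 0.09, edgeR adjusted p = 0.0127), and 14.5% of its exon length overlaps another gene on the same strand. RPS26, which lies at the mRNA exit, had 417 and 414 CPM, then 301 and 360 CPM (-0.33 ± 0.10, edgeR adjusted p = 0.0209). RPSA, also known as the laminin receptor, had 1198.1 and 1175.2 CPM, then 969 and 1007.1 CPM (-0.26 ± 0.07, edgeR adjusted p = 0.016). RPS15, close to the decoding site, had 976 and 1017.5 CPM, then 789 and 876 CPM (-0.26 ± 0.08, edgeR adjusted p = 0.0286). The groups did not overlap in any of the 4, but the rule for naming falls required this, so it adds no support. All 4 calls were lost with scaling by library totals alone and when either control library was left out. The calls of RPS2 and RPS15 were also lost with offsets for GC content and transcript length, at edgeR adjusted p of 0.231 and 0.653, and that of RPS15 with a filter of 1 CPM in 2 libraries, at 0.0598.

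Levels in the control libraries ranged widely between genes when set per kilobase of coding sequence. RPLP1, a stalk protein, had the highest level at 7002.6 CPM per kilobase, followed by RPL28 at 4316.8 and RPL35 at 3552.8. RPL35, another protein of the tunnel exit, had 1271.8 and 1350.3 CPM in the control libraries and 1173.1 and 1348.0 CPM with the CELF2 ASO. The groups overlapped, and the log2 fold change was -0.06 ± 0.09 (edgeR adjusted p = 0.621). At the low end stood RPS10 at 10.3, RPL36A at 11.4 and RPL17 at 24.6 CPM per kilobase, below RPL22 at 90.4 and RPL26 at 111. All 3 had a control mean under 20 CPM and share exons with another gene on the same strand, over 39.4%, 8.4% and 24.8% of their exon length. RPS10 (log2 fold change -0.39, edgeR adjusted p = 0.084) and RPL36A (-0.34, edgeR adjusted p = 0.237) did not pass. Without the 6 members that share over 10% of their exons in this way, 34 were higher and 4 lower, with a median of 0.27.

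Parts of the ribosome were counted separately, on 2 to 8 genes each. Over all members 45.5% were higher, and over all genes tested 27.5%. No difference between the parts was tested. RPL5 and RPL11, which join 5S rRNA in a particle that can bind and inhibit MDM2, were both higher. RPL5 had 670 and 676 CPM in the control libraries and 906 and 942 CPM with the CELF2 ASO (log2 fold change 0.46 ± 0.07, edgeR adjusted p = 0.00122). RPL11 had 1356.1 and 1399.2 CPM, then 1538.8 and 1877.3 CPM (0.31 ± 0.10, edgeR adjusted p = 0.0349). The RPL11 call was lost without either control library and in DESeq2, at an adjusted p of 0.0578.

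The stalk recruits the translation factors to the large subunit, and 3 of its 4 proteins rose. RPLP0, the base of the stalk, had 3288.4 and 3273.9 CPM in the control libraries and 4039.7 and 5020.8 CPM with the CELF2 ASO (log2 fold change 0.47 ± 0.11, edgeR adjusted p = 0.00819). RPLP1 had 2256.1 and 2533.6 CPM, then 2919.2 and 3289.5 CPM (0.37 ± 0.09, edgeR adjusted p = 0.0117). RPL12, which sits beside the base, rose by 0.51 on the log2 scale (edgeR adjusted p = 0.00191). RPLP2, the partner of RPLP1 in the stalk dimers, had 238 and 261 CPM in the control libraries and 205 and 247 CPM with the CELF2 ASO. Its groups overlapped (-0.15 ± 0.10, edgeR adjusted p = 0.265), and the sign turned to 0.09 with GC and length offsets. The calls of RPLP0 and RPLP1 were lost when either control library was left out.

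Of 8 proteins that line the peptide tunnel or its exit, 4 rose and RPL17 fell, with a median of 0.27. RPL4 had 3564.0 and 3612.2 CPM in the control libraries and 4705.7 and 5231.6 CPM with the CELF2 ASO (log2 fold change 0.47 ± 0.08, edgeR adjusted p = 0.00217), a call lost without control replicate 1 at an edgeR adjusted p of 0.0587. The other 3 rises were RPL31 at 0.51, RPL26 at 0.45 and RPL39 at 0.44 (edgeR adjusted p = 0.0039, 0.0134 and 0.018). The calls of RPL26 and RPL39 were lost without control replicate 1 and with GC and length offsets. Of the 4 small subunit proteins at the mRNA entry and the decoding centre, none rose. RPS2 and RPS15 fell, and RPS3 (0.15, edgeR adjusted p = 0.181) and RPS23 (0.08, edgeR adjusted p = 0.405) did not pass.

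A list of genes mutated in Diamond-Blackfan anaemia, an inherited failure of red cell production, held 19 of the members and may not be complete. Of these, 11 were higher (57.9%) and 1 was lower (5.26%), with a median log2 fold change of 0.36. Of the other 58 members 24 were higher (41.4%) and 5 lower (8.62%), with a median of 0.22. Over all genes tested 27.5% were higher and 27.9% lower. The difference between these members and the others was not tested. RPS19, the gene first linked to the disease, had 681 and 694 CPM in the control libraries and 566 and 661 CPM with the CELF2 ASO (-0.16 ± 0.09, edgeR adjusted p = 0.162). RPS27A, which is made as a fusion with ubiquitin, had 618 and 620 CPM, then 622 and 656 CPM (0.04 ± 0.07, edgeR adjusted p = 0.628). RPS27A was 1 of the flattest genes of the family, and its sign turned in some settings. The annotated spans of 28 members held 60 snoRNA genes on the same strand, for small RNAs that guide the modification of rRNA. Of these hosts 15 were higher (53.6%) and 3 lower (10.7%), with a median of 0.35. Of the 49 members without a snoRNA 20 were higher (40.8%) and 3 lower (6.12%), with a median of 0.16. No difference between hosts and other members was tested.

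The TOP tract was found in 25 of 29 genes that rose and had a promoter entry, in 26 of 28 that did not pass, and in 2 of 5 that fell. The 3 that fell without a match were RPL17, RPS15 and RPS26. In RPS15 and RPS26 such a run begins further downstream than the 5 bases allowed. The same was seen in windows of RPL9 and RPL15, which rose, and of a gene that did not pass. The counts of each group therefore depend on that limit. No difference between these groups was tested.

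Fold changes varied with the GC content of the transcript. Over the 77 members the Spearman correlation of log2 fold change with GC content was -0.35 (Pearson -0.34), a description across genes that share the same 4 libraries. Over 12749 protein-coding genes tested it was -0.23 (Pearson -0.19). The 38 members above the median GC content had a median log2 fold change of 0.13, with 12 higher and 3 lower, and the other 39 had a median of 0.36, with 23 higher and 3 lower. Offsets for GC content and length were fitted to these same libraries across the 17699 genes that had both values. They take out the GC trend over those genes, so a weaker correlation over the members follows in part from the fit. With them the correlation over the members was -0.08 (Pearson -0.02), and the medians were 0.18 and 0.23. With these offsets 31 members were higher and 5 lower, and over the same genes without offsets 39 were higher and 6 lower. Spearman correlations with coding length, exon number and number of snoRNA genes were 0.03, 0.06 and 0.09 (Pearson 0.07, 0.08 and 0.05), and that with the number of named pseudogenes was 0.27 (Pearson 0.02).

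**Figure D4:**
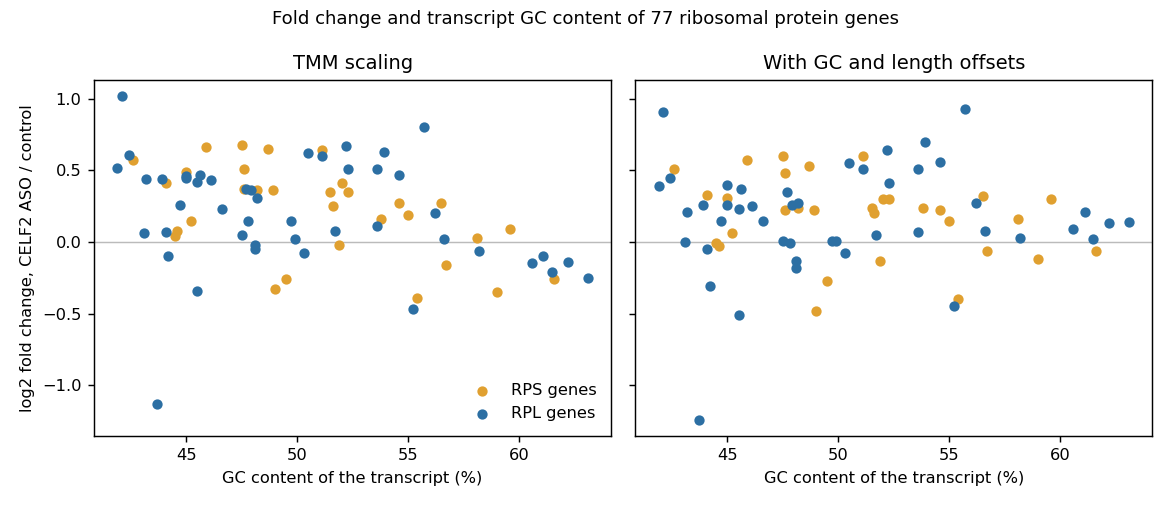
Each point is 1 of 77 genes, with the GC content of its transcript in percent on the x axis and its log2 fold change on the y axis, with TMM scaling on the left and with GC and length offsets on the right. The downward slope on the left (Spearman -0.35) is nearly flat on the right (-0.08), and most points stay above 0 in both panels. The offsets were fitted to GC content in these same libraries, so a flatter slope follows in part from the fit.

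Ribosomal components whose names do not follow the RPS and RPL pattern numbered 3, of which 1 was higher. RACK1, a scaffold protein of the small subunit, had 2389.0 and 2365.9 CPM in the control libraries and 3129.3 and 3755.4 CPM with the CELF2 ASO, 0.53 ± 0.10 on the log2 scale (edgeR adjusted p = 0.00278). FAU, whose product is a small subunit protein, had -0.17 (edgeR adjusted p = 0.128), and its sign turned with GC and length offsets. Of 8 paralogs of the members, 1 was higher and 2 lower. RPL26L1 had 20.7 and 20.9 CPM in the control libraries and 8.55 and 11 CPM with the CELF2 ASO, -1.10 ± 0.14 on the log2 scale (edgeR adjusted p = 0.000458). Its paralog RPL26, a member, rose. The 1 paralog that was higher was RPL10L (log2 fold change 1.41, edgeR adjusted p = 0.0189), with 6 and 7 counts under the control ASO and 18 and 17 under the CELF2 ASO. That call was lost without either control library, without replicate 2 of the CELF2 ASO, and in DESeq2. RPS27L had 0.22 (edgeR adjusted p = 0.113).

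Other mRNAs with a TOP tract encode translation factors and a few further proteins. Of 18 listed, 17 were tested and EEF1G was at 0 in all 4 libraries. Of the 17, 10 were higher (58.8%) and 4 lower (23.5%), with a median log2 fold change of 0.33. Over all genes tested 27.5% were higher and 27.9% lower. EEF1A1, which delivers tRNAs to the ribosome, had 12574.5 and 12374.9 CPM in the control libraries and 21481.2 and 25546.1 CPM with the CELF2 ASO (0.91 ± 0.10, edgeR adjusted p = 0.000211). TPT1, an abundant growth-related protein, rose by 1.05 on the log2 scale (edgeR adjusted p = 0.000304). NPM1, a nucleolar protein that works in ribosome assembly, went down, from 1651.4 and 1667.6 CPM to 749 and 758 CPM (-1.14 ± 0.07, edgeR adjusted p = 1.84e-05). EIF3K, a subunit of initiation factor eIF3, had -1.12 and the filament protein gene VIM had -0.94 (edgeR adjusted p = 1.97e-05 and 8.02e-05). The 3 lowest adjusted p-values of this list therefore all belonged to falls.

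Genes that signal to TOP mRNAs and genes that guard ribosomal proteins were counted in the same way. Of 13 genes for LARP1, mTORC1, its regulators and its targets, 1 was higher and 5 lower (38.5%), with a median log2 fold change of -0.27, where 35.4% of the protein-coding genes tested were called lower. AKT1S1, a subunit that restrains mTORC1, had -1.22, the S6 kinase gene RPS6KB2 had -0.85, and the translation repressor gene EIF4EBP1 had 0.72 (edgeR adjusted p = 4.57e-05, 9.15e-05 and 0.000179). LARP1 did not pass (-0.16, edgeR adjusted p = 0.0957). Of 12 genes for dedicated chaperones of ribosomal proteins and for the clearance of surplus or stalled ones, none was higher and 8 were lower (66.7%), with a median of -0.74. GRWD1, the chaperone of RPL3, went from 138 and 146 CPM to 43.3 and 39.1 CPM (-1.79 ± 0.08, edgeR adjusted p = 7.33e-06). HEATR3, which brings RPL5 into the nucleus, had -1.10, and BCCIP, the chaperone of RPL23, had -0.92 (edgeR adjusted p = 9.91e-05 and 0.000142). RPL3 thus rose in the same libraries in which the gene for its chaperone fell.

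**Figure D5:**
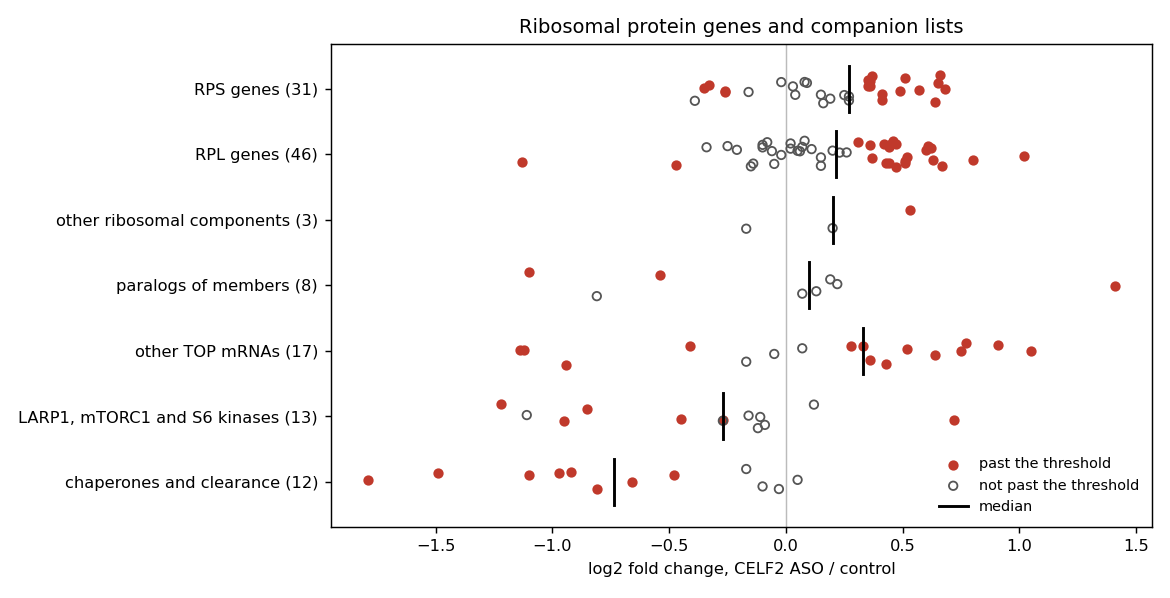
Each point is the log2 fold change of 1 gene, CELF2 ASO against control, in 7 rows of genes with their numbers in brackets, filled where the adjusted p passed the threshold, and the bar is the row's median. The RPS, RPL and other TOP mRNA rows have medians of 0.27, 0.22 and 0.33, and the row of chaperones and clearance has a median of -0.74.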

How the data were processed

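RNA was sequenced as paired reads from 4 libraries. Poly(A) selection is named in the design text, but RNase H removal of ribosomal RNA and random hexamers in the sample protocol. The authors deposited raw read counts, 1 whole number per gene and library. The submitters' processing notes name GRCh38, STAR 2.7.11b and featureCounts 2.0.8 of Subread, and also bcl2fastq and Salmon 1.10.0. For the strand setting, the annotation release and reads that match several genes, the choice is not given in the sources used here, so genes with near-identical copies are uncertain. The table had 79029 rows. The 97 spike-in or reporter rows, with 1 to 3 counts per library, stayed out. A name table gave symbols for 61481 gene IDs, and GENCODE 29 held 57356.

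Groups were compared with edgeR 4.0.16 in R 4.3.3, using filterByExpr (minimum count 10, minimum total 15), TMM scaling and the two-sided quasi-likelihood test (robust, without covariates). Benjamini-Hochberg adjustment ran over all 19511 genes tested, with a threshold of 0.05. Standard errors are of the log2 fold change. The fit was tested on simulated data, and its dispersion setting was changed after a first such test. The outcome of these tests is not reported here. Alternatives used RLE scaling, library totals, other filters, a replicate block, each library left out, DESeq2 1.42.0, limma 3.58.1 and GC and length offsets from mgcv 1.9.3, which covered 17699 of the genes tested (90.7%). Counts of the control pair differed by a chi-square of 3.38 per degree of freedom and those of the CELF2 ASO pair by 18.5, both beyond sampling noise.

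The members and lists were chosen with earlier results of these data known, so no test was made over a list. Genes named with every library's value were the 8 largest rises and up to 8 largest falls past the threshold with groups that did not overlap, the 3 highest control levels, CELF2, and RPL5, RPL11, RPLP0, RPLP1, RPLP2, RPL22, RPL10, RPS6, RPS19, RPSA and RPS27A. The 3 highest levels were taken per coding length, after the data were seen. Of each companion list, the 3 smallest adjusted p-values and any paralog could be named. EEF1A1, TPT1, LARP1, RPL4, and the marker genes CD8B, CD3D, LYZ and S100A8 were named with their values after these were seen, as were the per-library values of RACK1. Some genes that this rule names are not reported here.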

Additional observations from a re-analysis of the deposited data

How the results depend on the processing

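The main counts were 35 members higher and 6 lower. Lower members numbered 2 with library totals alone and 10 with no filter. With each library left out in turn, the counts ran from 18 to 52 higher and from 2 to 19 lower. The members' median ran from 0.09 to 0.38, that of RPS genes from 0.09 to 0.42 and that of RPL genes from 0.07 to 0.34. The members' median less that of all genes ran from 0.06 to 0.34. The replicate block gave 35 higher and 6 lower and changed none of the calls of the genes named. The correlation of same-numbered deviations from the group means was 0.06. It is 1 value for both numbers, because deviations from a mean of 2 libraries mirror each other. It cannot tell whether same-numbered libraries shared a culture or a day. DESeq2 gave 33 and 6, limma-voom 35 and 8, and RLE scaling 34 and 8. The 1 CPM filter in 2 libraries gave 42 and 5. The genes with GC and length values gave 39 and 6 without offsets and 31 and 5 with them. This refit, the fits without overlapping members, and the difference of medians were chosen after seeing the data.

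Of 700 refits of the 54 genes named, 638 kept direction and side of the threshold, 35 lost the call, 17 gained it and 10 changed sign. None of the sign changes was in a called member. RPS27A was -0.01 with no filter, without CELF2 ASO replicate 2 and with GC and length offsets. The offsets also gave 0.09 for RPLP2, 0.03 for RPL35, -0.03 for RPS23 and 0.08 for FAU. Library totals alone gave 0.06 for RPL35. With each library left out in turn, RPL35 ran from -0.18 to 0.05 and RPS23 from 0.00 to 0.15. The cause of these changes was not tested. Summing all rows of a symbol was not run, as each symbol had 1 row. Depth limits few members: 72 had over 1000 counts in all 4 libraries, and the least count was 64.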
